A study of Mus musculus with 6 samples.

Results

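Myofibroblasts sorted from lungs of bleomycin-treated mice were compared with steady-state fibroblasts sorted from lungs of untreated mice, on the 4 one-colour Agilent arrays that the labels assign to these groups (2 each, of 6 in the series). The myofibroblasts were gated as CD49e+ Sca-1- Lin- cells, and the steady-state fibroblasts as CD140a+ Lin- cells. All samples were labelled male, each group was described as sets of 50000 cells, and Cy3-labelled cRNA was made from 5.8 ng of total RNA. Strain, age, bleomycin dose and time after bleomycin are not given in the sources used here. The remaining 2 arrays held homogenate of whole untreated lung and serve here as a reading of unsorted tissue. Cell gate and bleomycin treatment changed together and cannot be told apart. Whether the replicates are separate animals or cultures is not stated in the labels. The p-values therefore measure only how far these samples lay apart, a spread that may be technical.

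Lung fibroblasts at rest hold the alveolar and bronchovascular scaffold in place, and some of them store retinoids and lipid. After injury, fibroblasts can become myofibroblasts, which divide, build actin-myosin bundles coupled to focal adhesions, and secrete, cross-link and remodel collagen-rich matrix. Bleomycin, a DNA-damaging drug, is widely used to induce such a response in mouse lung. The question put by the series title is how the resting and the activated cell differ, and it is described here programme by programme.

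Signals are given as multiples of the array's 75th percentile, in the order replicate 1 and replicate 2. Differences are log2 values, myofibroblasts minus fibroblasts, given ± SE with n = 2 in each group, from limma with Benjamini-Hochberg adjustment over all 16006 genes tested. Calls were made below an adjusted p of 0.05. Where the dimmer group was not well above background on 1 or both arrays, the fold is a lower bound ("at least"). A gene is said to be called in every fit when the call also held with the 4 sorted arrays alone and after leaving out each of the 6 arrays in turn. In a bulk sample, fewer cells of a type and less RNA per cell cannot be told apart.

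Between 65.5% and 67.0% of the spots were well above background on the sorted arrays, and no spot was saturated. Replicates lay further apart in fibroblasts than in myofibroblasts, with 23.5% against 7.84% of genes differing more than 2-fold between the replicates. The 10 fibroblast markers were above background on all 4 sorted arrays, and their summed signal was 1205% and 1227% of the homogenate in myofibroblasts and 620% and 432% in fibroblasts. Most of the myofibroblast sum came from the type I collagen genes Col1a1 (325 and 345) and Col1a2 (507 and 514). The list did not move 1 way, with 4 markers called higher in myofibroblasts and 2 lower. Summed markers of endothelium (12 genes) and alveolar epithelium (13 genes) were between 1.04% and 2.58% of the homogenate on every sorted array. Those of lymphocytes were between 9.58% and 13.2%, and those of neutrophils between 59.8% and 96.6%, mostly from the Csf3r probe. Summed pericyte markers (11 genes) were 118% and 114% in myofibroblasts and 111% and 105% in fibroblasts, mostly from the Mcam probe. Of the pericyte genes, Cspg4 was called higher in every fit and Kcnj8 and Abcc9 were called lower. The Schwann cell gene S100b was called higher (2.47, adjusted p = 0.0148). Summed smooth muscle markers (10 genes, some of them also in the contractile list below) were 471% and 568% of the homogenate in myofibroblasts and 28.8% and 67.5% in fibroblasts. Of these, Acta2, Actg2, Cnn1, Des and Myh11 were called higher and Pln lower, and Lmod1 was not above background on any sorted array. Most of each smooth muscle sum came from Acta2, at 143.8 and 172.5 in myofibroblasts and 9.79 and 24.4 in fibroblasts. The labels call all samples male, but the Y-linked gene Ddx3y, at 0.796 and 1.17 in myofibroblasts and 3.44 and 1.48 in fibroblasts, was not above background on either homogenate array. The homogenates enter the tests below only through the shared estimate of spread.

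At this threshold 2758 of 16006 genes were called (17.2%), 1475 higher in myofibroblasts (9.22%) and 1283 lower (8.02%). With the 4 sorted arrays alone 1061 were called (6.63%), 604 higher (3.77%) and 457 lower (2.86%), and 638 were called in every fit (3.99%), 397 higher (2.48%) and 241 lower (1.51%). The larger differences leaned upward, with 126 higher and 50 lower genes past 16-fold, and 52 and 16 past 32-fold. Among the called genes, 276 higher ones were not above background on either fibroblast array, and 200 lower ones not on either myofibroblast array. The median difference over all tested genes was -0.06, and 7610 genes were above 0 and 8396 below. That centre moves with the scaling, by 0.14 when each array was scaled by its median and by -0.41 in the values of the authors' deposited table. Higher genes made up 64.6% of the calls in the former and 25.4% in the latter, in place of 53.5%.

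The genes were grouped into 45 lists by function. For each list the counts of called members are read beside the 9.22% and 8.02% called over all genes. Some lists lay near these shares, such as immediate early and heat shock genes (7.14% higher, 10.7% lower). Lipid storage genes (14.3% and 10.7%) and interferon-stimulated genes (14.3% and 17.9%) lay above them in both directions. Homogenate replicate 1 or 2 left out gives the same list counts as the 4 sorted arrays alone, so those counts are printed once. The share called over all genes differs between fits. It was 3.77% higher and 2.86% lower with the 4 sorted arrays. It also fell without either myofibroblast array and rose in both directions without fibroblast replicate 2. A list count that moves the same way in such a fit is not by itself a trait of the list. The plot of called members per list shows where calls were concentrated in 1 direction: mitosis, kinetochore, collagen, contractile and DNA replication genes on the higher side, and complement, alveolar and adventitial fibroblast and detoxifying enzyme genes on the lower side.

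**Figure D1:**
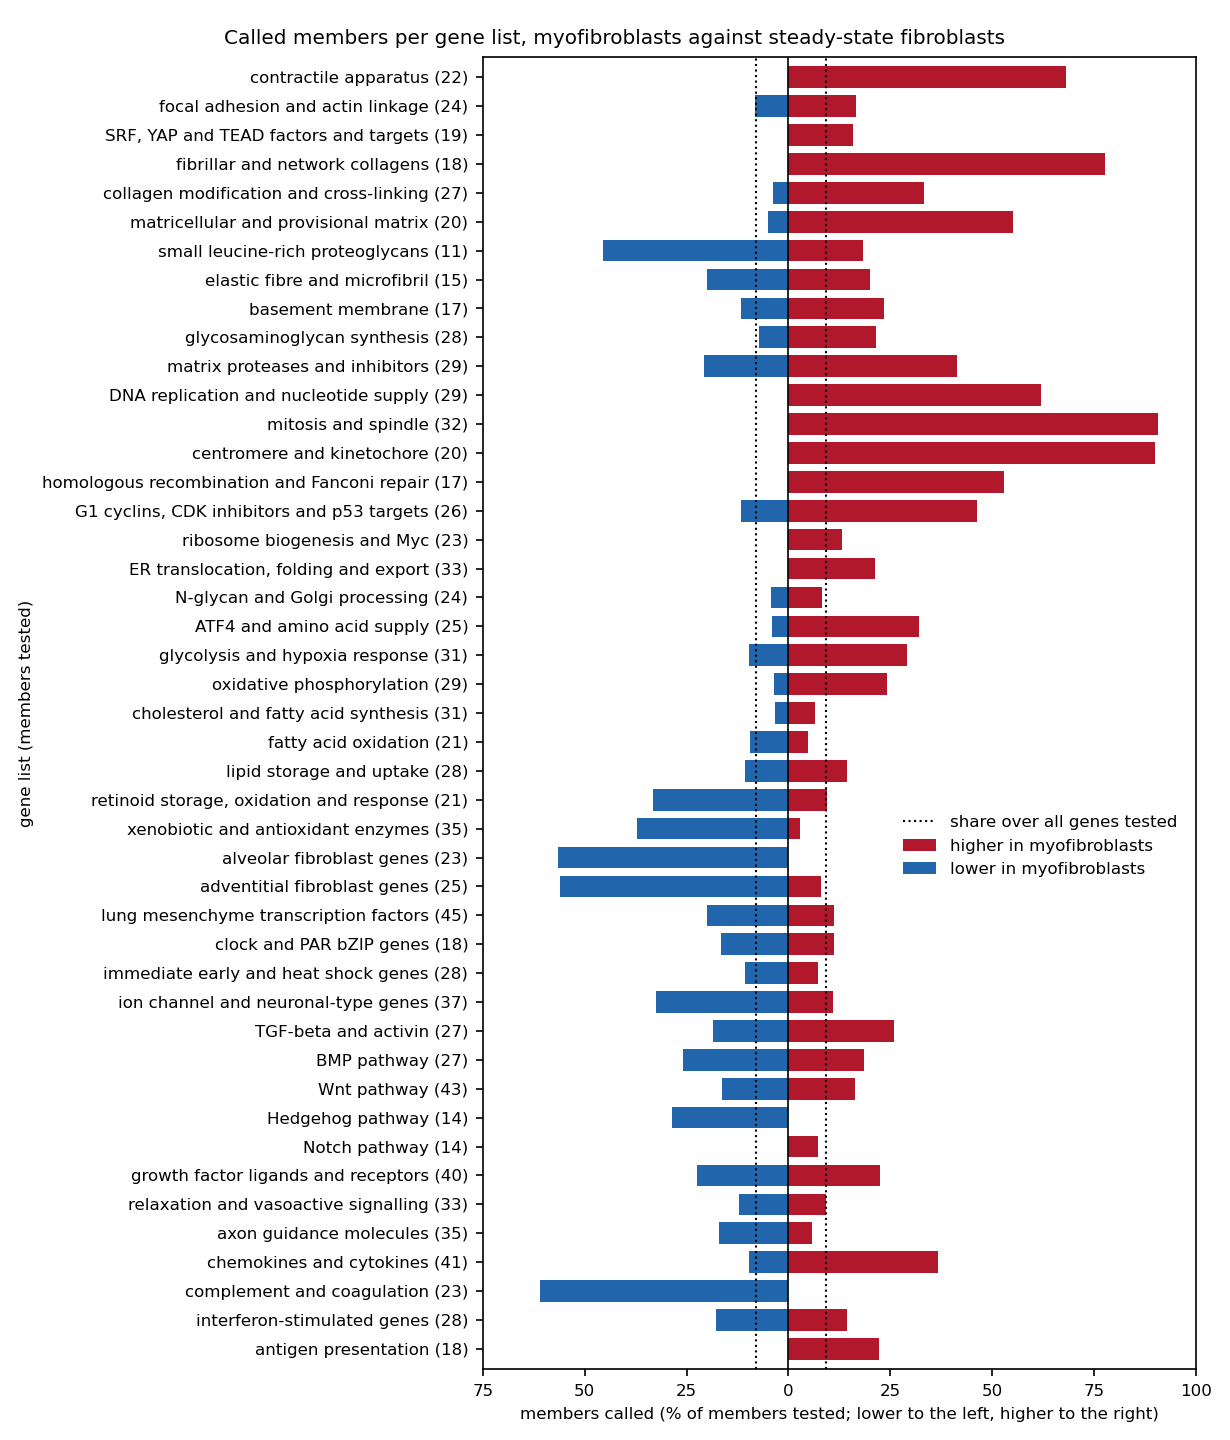
Share of tested members called higher (red, right) or lower (blue, left) in myofibroblasts for each gene list, in percent, with the number of tested members in brackets and dotted lines at the share over all genes tested (9.22% higher, 8.02% lower). The mitosis and kinetochore lists reach 29 of 32 and 18 of 20 members called higher, and the complement list 14 of 23 called lower.

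Genes of cell division rose together. All 32 tested members of the mitosis and spindle list had a positive difference, 29 were called higher and 0 lower, and the median was 4.38. The size of that median rests on dim fibroblast signals: it was 2.06 after normexp background correction with quantile normalization (31 called higher), and 2.86 over the 18 members above background on all 4 sorted arrays (13 called higher). Of these, 20 were called in every fit, and the count was 24 with the 4 sorted arrays and 22 or 21 without myofibroblast replicate 1 or 2. Cells enter mitosis by switching on a set of G2/M genes through the CHR element, a short promoter sequence bound by the DREAM and FOXM1-MuvB complexes. Of the called mitosis and kinetochore genes that carry this element close to the start, 5 promoters are shown to let its position be seen, so all of them hold it by choice. Each line gives the 100 bases before the RefSeq start (GRCm38.p6), read 5′ to 3′ on the gene's strand, with the CHR letters TTTGAA, or TTCAAA where it lies on the other strand, in capitals.
Kif11, chr19:37376282-37376381, plus strand: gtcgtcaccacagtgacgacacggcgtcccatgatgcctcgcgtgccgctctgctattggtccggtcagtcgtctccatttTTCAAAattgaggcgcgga
Top2a, chr11:99024190-99024289, minus strand: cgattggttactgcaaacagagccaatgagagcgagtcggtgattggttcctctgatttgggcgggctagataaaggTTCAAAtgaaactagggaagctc
Ncapg, chr5:45669825-45669924, plus strand: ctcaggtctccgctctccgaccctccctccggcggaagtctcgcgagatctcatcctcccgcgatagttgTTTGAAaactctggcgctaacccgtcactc
Ube2c, chr2:164769829-164769928, plus strand: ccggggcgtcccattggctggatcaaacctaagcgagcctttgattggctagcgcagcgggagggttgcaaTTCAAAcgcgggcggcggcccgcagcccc
Ska3, chr14:57826164-57826263, minus strand: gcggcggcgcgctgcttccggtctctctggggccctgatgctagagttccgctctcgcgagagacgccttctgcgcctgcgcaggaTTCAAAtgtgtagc
In all 5 the match begins between 14 and 30 bases before the start. Within 250 bases before the start, on either strand, TTTGAA was present in 12 of the 26 mitosis genes with a promoter in the table (46.2%), against 1772 of 12631 tested genes (14.0%) and 18.3% of all genes in it. The CCAAT box, searched as CCAAT on both strands, was present in 21 of the 26 (80.8%) against 39.5% of tested genes, and a match of one motif may share its end base with the other. The kinetochore list held TTTGAA in 3 of 17 (17.6%) and the DNA replication list in 3 of 25. Such shares were not particular to the mitosis list. TTTGAA was also in 4 of 8 small leucine-rich proteoglycan genes (50%), a list called lower more often than higher. The CCAAT box was also in 17 of 20 cholesterol and fatty acid synthesis genes (85%) and 10 of 13 antigen presentation genes (76.9%). A match describes letters in these windows and is not a measured binding site.

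Kif11, the bipolar spindle kinesin, read 1.21 and 1.12 in myofibroblasts and 0.00881 and 0.0183, not above background, in fibroblasts. It was at least 27.2-fold higher (adjusted p = 0.00139). Ncapg, a condensin subunit that compacts chromosomes, read 1.26 and 1.47 against 0.0897 and 0.0531 and was at least 19.7-fold higher (adjusted p = 0.00408). Kif20a, a kinesin of cytokinesis, read 5.800 and 5.097 against 0.124 and 0.0821, a difference of 5.75 ± 0.30 (adjusted p = 0.00128). In each of these genes both myofibroblast arrays lay far above both fibroblast arrays, and each was called in every fit. Ube2c, the ubiquitin-conjugating enzyme of the anaphase-promoting complex, read 1.38 and 2.44 against 0.0256 and 0.0952 and was at least 29.95-fold higher (adjusted p = 0.008499), a call that ended without myofibroblast replicate 2 (adjusted p = 0.0552). Mki67, the proliferation antigen Ki-67, rose by 4.73 ± 0.26 and the survivin gene Birc5 by 5.57 ± 0.24 (adjusted p = 0.00132 and 0.000958). At the kinetochore, the protein platform that ties chromosomes to microtubules, 18 of 20 genes were called higher and 0 lower, with a median of 4.28, or 1.52 after normexp. Over the 7 of them above background on all 4 sorted arrays, 6 were called higher and the median was 2.43. Ndc80, its microtubule-binding core, was at least 19.3-fold higher and Ska3, which stabilises that attachment, at least 22.4-fold (adjusted p = 0.00173 and 0.00406). Of the 18 calls, 9 were made in every fit, 15 with the 4 sorted arrays, and 10 or 9 without myofibroblast replicate 1 or 2.

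DNA replication genes rose as well. Of 29 members, 18 were called higher and 0 lower, and the median was 1.65, or 0.96 after normexp. Mcm5, a subunit of the replicative helicase, read 1.32 and 1.49 against 0.187 and 0.188, a rise of 2.90 ± 0.24 (adjusted p = 0.00301), and Mcm3 of the same complex rose by 2.90 ± 0.25 (adjusted p = 0.00317). Both groups were tight and far apart for these genes, and both were called in every fit. Uhrf1, which carries DNA methylation over to the new strand, rose by 4.12 ± 0.40, and the nucleotide supply gene Tyms by 2.68 ± 0.28 (adjusted p = 0.00425 and 0.00509). Rrm2, the regulated subunit of ribonucleotide reductase, rose by 3.96 ± 0.55, but this call was lost on omitting either myofibroblast array (highest adjusted p 0.0616). The sliding clamp gene Pcna read 43.6 and 49.9 against 28.9 and 19.7, a difference of 0.97 ± 0.29 that did not pass (adjusted p = 0.0755). The count of 18 was 9 with the 4 sorted arrays and 7 or 6 without myofibroblast replicate 1 or 2. For some members, and for Aurkb of the mitosis list, the probes disagreed. The brightest probes of Aurkb, Gins2 and Cdc45 read 0.75, 0.84 and -0.26 and were not called. Another probe of each read 5.55 (adjusted p = 0.00348), 5.16 (adjusted p = 0.00174) and 3.31 (adjusted p = 0.0218).

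Genes that repair broken DNA by homologous recombination, or clear interstrand cross-links, followed the same direction. Of 17 genes, 9 were called higher and 0 lower, with a median of 2.59, and 6 were called in every fit. The median was 1.04 after normexp, and 0.61 over the 8 genes above background on all 4 sorted arrays, of which 3 were called higher. Without myofibroblast replicate 2 the count was 6. By its brightest probe, Brca1 read 0.927 and 1.18 against 0.0133 and 0.0101 and was at least 24.4-fold higher (adjusted p = 0.00128). Another probe of Brca1 read 2.10 (adjusted p = 0.0348). The resection nuclease gene Exo1 was at least 10.7-fold higher (adjusted p = 0.00178). Neither brightest probe was above background on a fibroblast array. Several genes of this list are known to be expressed in S phase.

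The genes that gate entry into the cycle, both drivers and brakes, were called more often higher than lower. Of 26 G1 cyclins, CDK inhibitors and p53 targets, 12 were called higher and 3 lower, with a median of 1.22. Ccnd1, cyclin D1, read 6.49 and 5.59 against 0.2504 and 0.458, a rise of 4.15 ± 0.36 (adjusted p = 0.00324), and the E2F genes E2f8 and E2f2 were at least 9.42-fold and 8.11-fold higher (adjusted p = 0.00497 and 0.00132). The CDK inhibitors of the Ink4 locus rose as well. Cdkn2a read 0.263 and 0.413 against 0.0248 and 0.0202, at least 7.68-fold higher (adjusted p = 0.00319), and Cdkn2b read 1.62 and 1.41 against 0.215 and 0.0963, a rise of 3.40 ± 0.42 (adjusted p = 0.00773). The probe of Cdkn2a does not tell here which of the locus's products was read. Cdkn1a, the p53 target p21, read 3.58 and 4.82 against 1.12 and 0.953, a rise of 2.01 ± 0.28 (adjusted p = 0.01098) that was no longer called without myofibroblast replicate 2 (adjusted p = 0.0629). The opposite held for Cdkn1c, the p57 inhibitor of quiescent cells, which read 0.298 and 0.443 against 5.66 and 4.101, a difference of -3.73 ± 0.32 (adjusted p = 0.00324). Cdkn1b, p27, stood at -1.60 ± 0.36 (adjusted p = 0.0381), but that call ended when any array other than fibroblast replicate 2 was left out (adjusted p up to 0.168). Of this list 6 members were called in every fit. Higher calls numbered 6 with the 4 sorted arrays, 6 or 5 without myofibroblast replicate 1 or 2, and 17 without fibroblast replicate 2, while lower calls numbered 1 in the first 3 of these fits, 2 without fibroblast replicate 1 and 3 without fibroblast replicate 2.

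**Figure D2:**
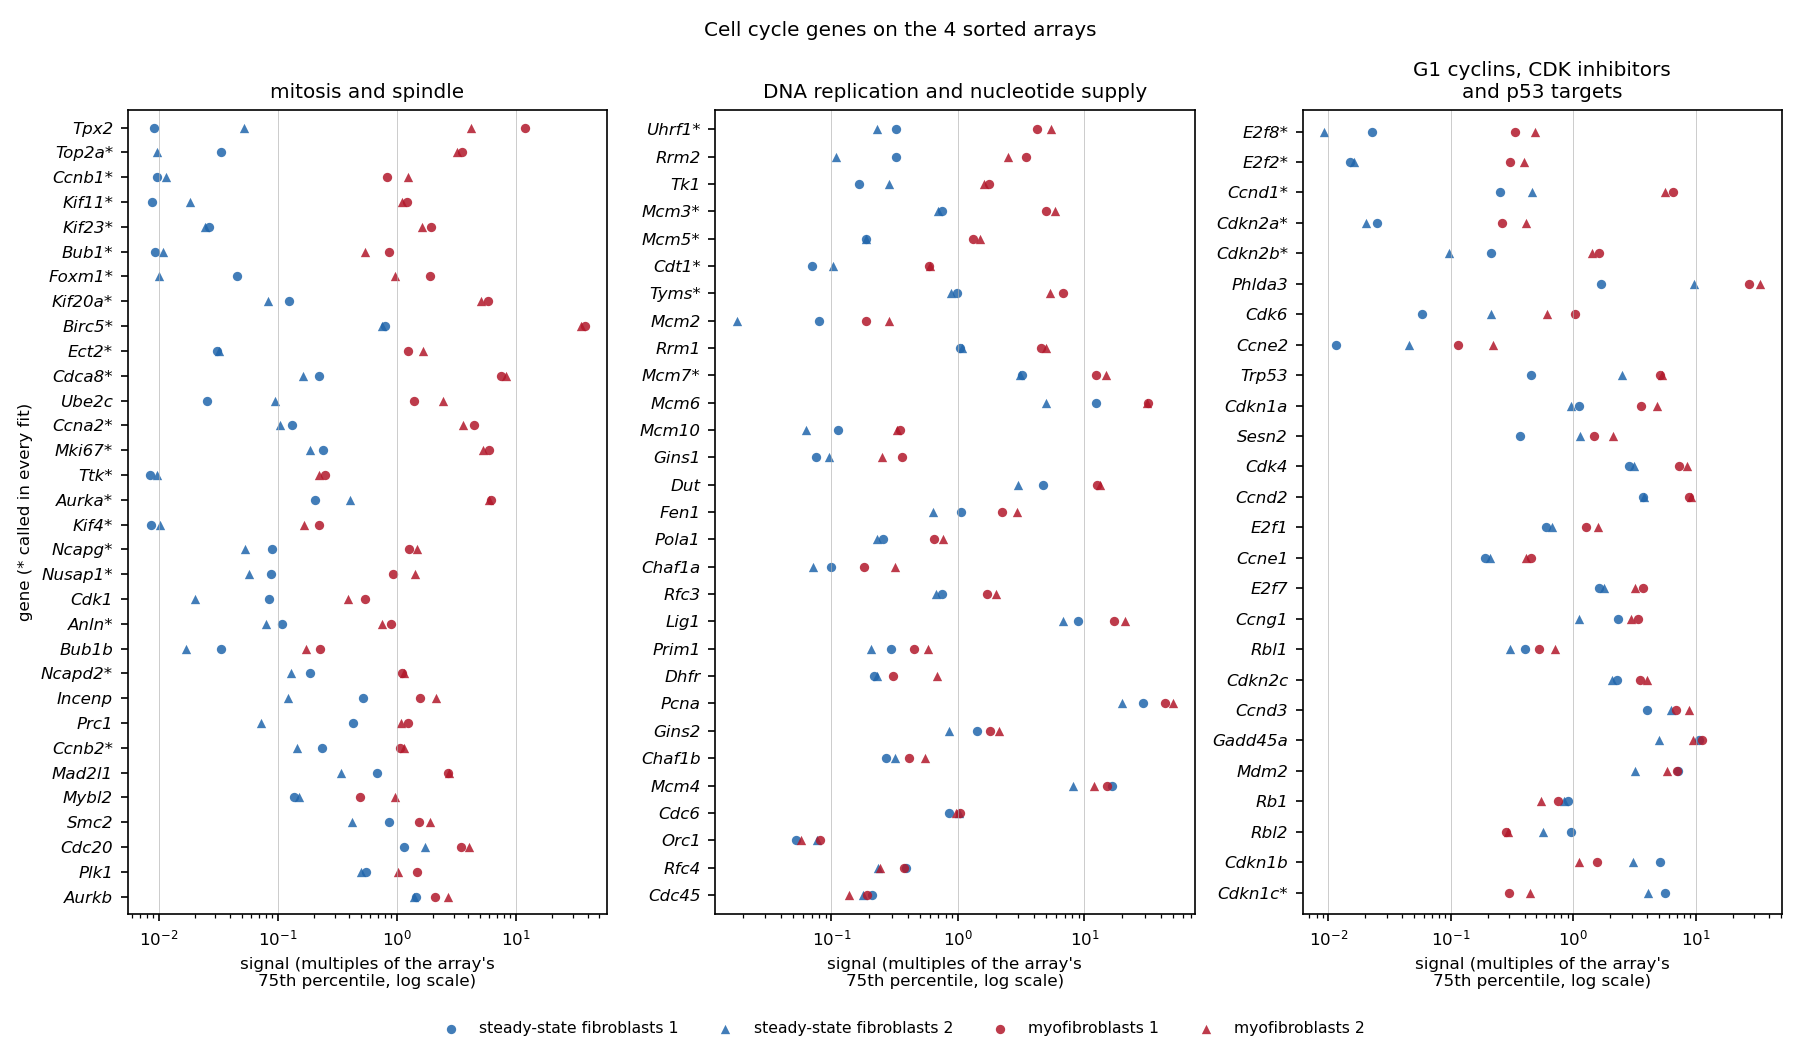
Signal of each tested member of the mitosis, DNA replication and G1 lists on the 4 sorted arrays (blue, steady-state fibroblasts; red, myofibroblasts; circles, replicate 1; triangles, replicate 2), as multiples of the array's 75th percentile on a log scale, ordered by log2 difference, with an asterisk at genes called in every fit. Red points lie to the right of blue ones for nearly all mitotic genes, the replication genes separate less, and Cdkn1c at the bottom of the G1 list runs the other way.

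Most genes of the contractile apparatus rose, beyond the smooth muscle actin that names the cell. Of 22 tested members, 15 were called higher and 0 lower, and the median was 1.80. The smooth muscle marker sums given above moved in the same direction, and the part of smooth muscle RNA in these calls was not tested. Non-muscle and smooth muscle myosin light chains rose together: Myl9 read 14.8 and 18.8 against 4.46 and 4.83, a rise of 1.84 ± 0.25 (adjusted p = 0.0104), and Myl6 read 148 and 179 against 40.7 and 56.02, a rise of 1.77 ± 0.28 (adjusted p = 0.0153). Cnn2, a calponin of non-muscle cells, read 33.1 and 39.2 against 8.94 and 13.6, a rise of 1.71 ± 0.31 (adjusted p = 0.0221). Myl9 lost its call without myofibroblast replicate 2, and Myl6 and Cnn2 lost theirs without either myofibroblast or either homogenate array. Myh11, the smooth muscle myosin heavy chain, rose by 2.10 ± 0.31 (adjusted p = 0.0127, 0.0656 without myofibroblast replicate 1), to 3.67 and 2.78 from 0.774 and 0.715, both below the homogenate at 6.45 and 9.47. The kinase gene Mylk, which activates myosin, read 8.07 and 8.496 against 2.96 and 6.87 and did not pass (0.88 ± 0.43, adjusted p = 0.202). Over the list, 5 members were called in every fit. The count of higher members was 9 with the 4 sorted arrays, and 6 without myofibroblast replicate 1 or 2.

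These genes are classical targets of serum response factor, which binds the CArG box with its actin-sensing cofactors. A CArG box lay within 250 bases before the start, on either strand, in 3 of 19 contractile genes with a promoter in the table (15.8%) and in 4 of 19 focal adhesion genes (21.1%), against 192 of 12631 tested genes (1.52%). The 3 contractile genes were Myl9, Myl6 and Cnn2, and 2 of their promoters are shown because their boxes lie within 100 bases of the start, with the box in capitals.
Myl6, chr10:128493010-128493109, minus strand: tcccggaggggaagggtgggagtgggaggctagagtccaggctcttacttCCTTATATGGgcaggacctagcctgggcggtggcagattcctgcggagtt
Cnn2, chr10:79988500-79988599, plus strand: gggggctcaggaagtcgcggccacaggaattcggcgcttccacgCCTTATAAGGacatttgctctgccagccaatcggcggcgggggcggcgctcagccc
The genes of the factors themselves were not called by their brightest probes. Srf read 15.9 and 21.7 against 31.9 and 20.04 (-0.44 ± 0.33, adjusted p = 0.378), and its cofactor genes Mrtfa and Mrtfb stood at -0.70 ± 0.26 and -1.50 ± 0.39 (adjusted p = 0.118 and 0.0537), although 1 of the other probes of Mrtfb was called lower (-3.05, adjusted p = 0.00623). Yap1, which drives TEAD targets in stretched cells, read 1.16 and 0.709 against 2.32 and 0.5296, with the fibroblast arrays further apart than the groups. In the list of SRF, YAP and TEAD factors and targets 3 of 19 were called higher and 0 lower, with a median of 0.37 that turned to -0.04 in the authors' deposited table. Without myofibroblast replicate 1 or 2 the count was 0, and 7 without fibroblast replicate 2. Fhl2, a cofactor at focal adhesions, rose from 0.493 and 0.332 to 3.99 and 5.74, by 3.56 ± 0.33 (adjusted p = 0.00365). In the focal adhesion list 4 of 24 members were called higher and 2 lower, and 1 and 0 with the 4 sorted arrays. For 3 of the called members, no other tested probe was called. Pdlim5 stood at 1.74 by its brightest probe and at -0.67 and -0.90 by others. Parva stood at 1.42 and 0.31, and Tns1 at -1.38 and -0.83.

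Matrix genes rose in several classes and fell in 1. Of 18 fibrillar and network collagens, 14 were called higher and 0 lower, with a median of 2.12. Both chains of type I collagen were among them: Col1a2 read 507 and 514 against 194 and 160.2, a rise of 1.53 ± 0.25 (adjusted p = 0.0164). Col6a2, of the beaded type VI network, read 208 and 249.9 against 30.1 and 58.8, a rise of 2.44 ± 0.38 (adjusted p = 0.0149). The calls of Col1a2 and Col6a2 were both lost on omitting either myofibroblast array, and that of Col1a2 also without either homogenate array. Col10a1, the collagen of hypertrophic cartilage, differed between the myofibroblast arrays themselves (2.74 and 0.316), was not above background in fibroblasts, and was at least 21.7-fold higher (adjusted p = 0.0175, 0.0542 without fibroblast replicate 1). Col3a1 stood at 1.07 ± 0.28 and did not pass (adjusted p = 0.0562). The collagen count was 7 with the 4 sorted arrays and 5 without myofibroblast replicate 1 or 2, and 4 genes were called in every fit.

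Enzymes that mature and cross-link collagen rose in part. Of 27, 9 were called higher and 1 lower, with a median of 1.17, and 6 and 4 in the authors' deposited table. Loxl3, a lysyl oxidase, read 9.57 and 7.89 against 1.56 and 1.87, a rise of 2.35 ± 0.26 (adjusted p = 0.00546). Plod2, the hydroxylase that sets pyridinoline cross-links, rose by 2.70 ± 0.52 (adjusted p = 0.0251), a call lost on omitting either myofibroblast or either homogenate array (adjusted p up to 0.121). The single lower member was Colgalt2, which adds galactose to hydroxylysine: it read 0.905 and 1.25 in fibroblasts and was not above background on a myofibroblast array, at least 26.3-fold lower (adjusted p = 0.00495). Higher calls numbered 4 with the 4 sorted arrays, 3 without myofibroblast replicate 1 or 2, and 16 without fibroblast replicate 1. Lower calls numbered 2 and 3 without fibroblast replicate 1 and 2. Beyond collagen, 11 of 20 matricellular genes were called higher and 1 lower, 6 of the higher ones in every fit. Among these was Thbs2, a thrombospondin that restrains angiogenesis, with 4.32 and 4.38 against 0.256 and 0.342, a rise of 3.88 ± 0.37 (adjusted p = 0.00392). Sparc, a collagen chaperone of the matrix, rose from 29.5 and 103 to 452 and 477 by 3.07 ± 0.59 (adjusted p = 0.0253), although its fibroblast arrays differed more than 3-fold and the call ended on omitting either myofibroblast or either homogenate array (adjusted p up to 0.115). Without myofibroblast replicate 1 or 2 the higher count of this list was 6 and the lower 0, and without fibroblast replicate 2 it was 12 and 2.

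Small leucine-rich proteoglycans, which coat collagen fibrils and set their spacing, were called lower more often than higher. Of 11, 5 were called lower and 2 higher, with a median of -0.69. Ogn, osteoglycin, read 3.96 and 4.94 against 47.7 and 30.7, a difference of -3.11 ± 0.31 (adjusted p = 0.00456), and was lower on both myofibroblast arrays in every fit. Omd, osteomodulin, was at least 32.8-fold lower (adjusted p = 0.0135, 0.0535 without fibroblast replicate 1), and Ecm2 stood at -2.32 ± 0.34 (adjusted p = 0.0131, 0.0746 without myofibroblast replicate 2). Biglycan was the exception among the abundant members: Bgn read 189 and 209.5 against 85.8 and 95.5, a rise of 1.14 ± 0.24 (adjusted p = 0.0323) that ended on omitting either myofibroblast or either homogenate array (adjusted p up to 0.142). Lower calls in this list ranged from 3 without myofibroblast replicate 2 to 6 without fibroblast replicate 2, and higher calls from 0 to 2. The plot of contractile and matrix genes by array shows the 3 lists side by side.

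**Figure D3:**
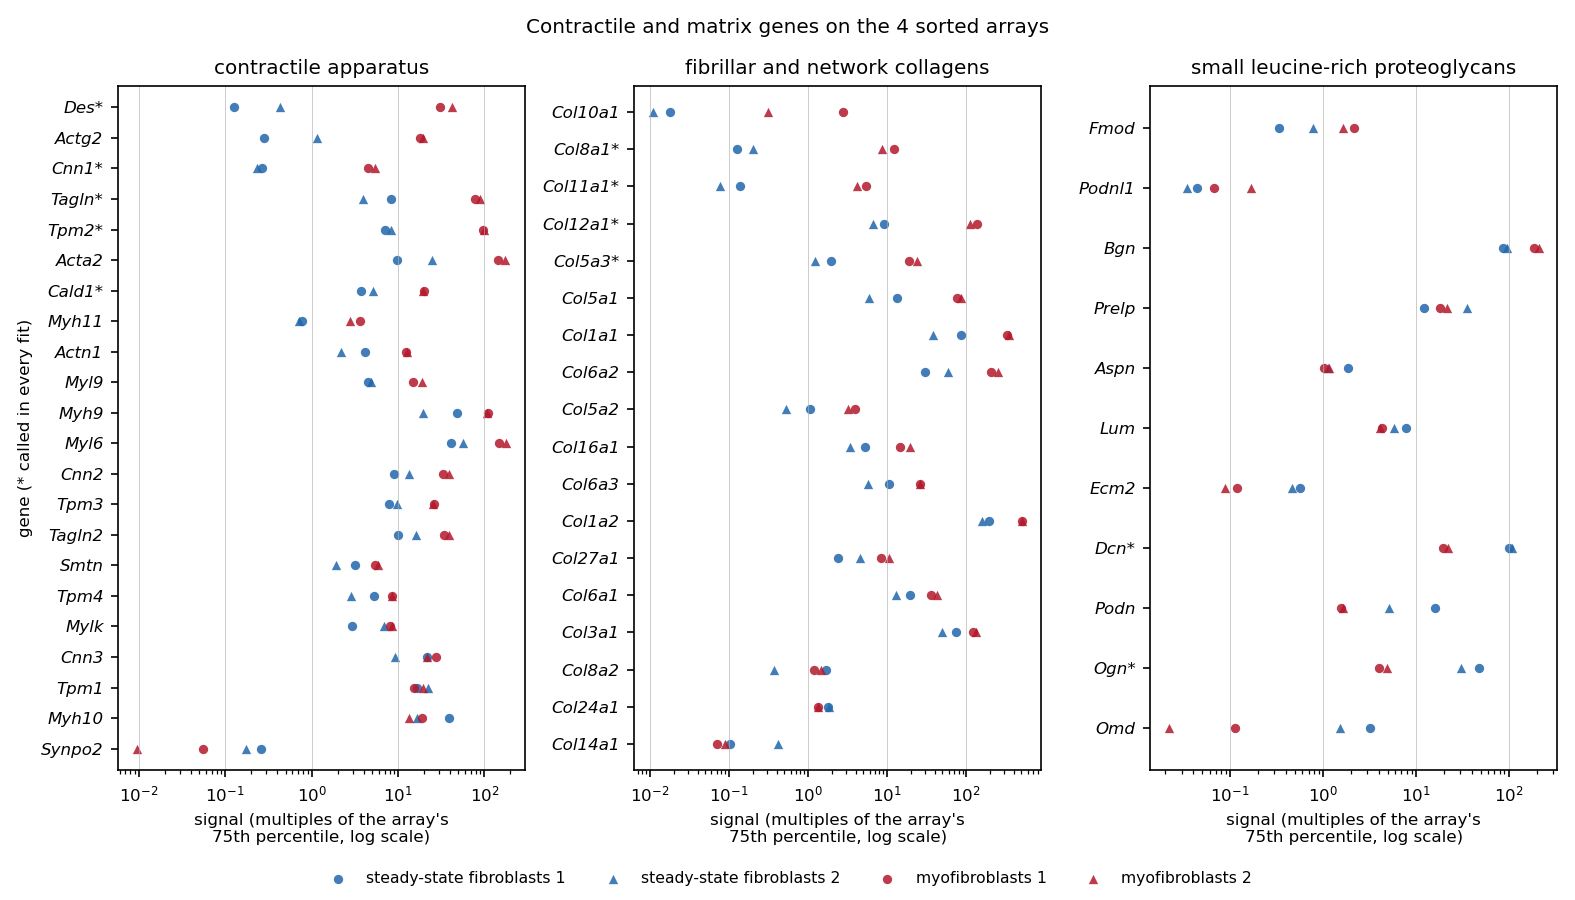
Signal of each tested contractile, collagen and small leucine-rich proteoglycan gene on the 4 sorted arrays (blue, steady-state fibroblasts; red, myofibroblasts; circles, replicate 1; triangles, replicate 2), as multiples of the array's 75th percentile on a log scale, with an asterisk at genes called in every fit. Myofibroblast points lie to the right for 15 contractile genes and 14 collagens that were called, and to the left for Ogn, Dcn, Podn, Ecm2 and Omd.

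Heparan and chondroitin sulfate synthesis changed in its parts. Ext1, the heparan sulfate polymerase, read 7.46 and 9.09 against 1.43 and 1.53, a rise of 2.48 ± 0.25 (adjusted p = 0.00456), and Chsy3, a chondroitin synthase, was at least 7.03-fold higher (adjusted p = 0.00889). Hs3st1, which adds a rare 3-O sulfate to heparan chains, read 0.238 and 0.137 against 4.12 and 1.76, a difference of -3.90 ± 0.50 (adjusted p = 0.00828, 0.0502 without myofibroblast replicate 2). Sdc1, syndecan-1, a heparan sulfate proteoglycan of the cell surface that is no member of this list, read 4.02 and 3.85 against 0.208 and 0.2104, a rise of 4.23 ± 0.23 by its brightest probe (adjusted p = 0.00129), while another probe read 5.26 (adjusted p = 0.00126), and the remaining probe did not pass (adjusted p = 0.0816). Has2, a hyaluronan synthase, rose by 2.35 ± 0.41 (adjusted p = 0.0205, up to 0.106 omitting either myofibroblast or either homogenate array), while Has1 read 34.7 and 44.98 against 52.6 and 50.6 and did not pass (adjusted p = 0.3204). In all, 6 of 28 such genes were called higher and 2 lower, with a median of 0.70, or 0.35 after normexp. These were 3 and 2 with the 4 sorted arrays, 3 and 1 or 2 and 0 without myofibroblast replicate 1 or 2, and 12 and 7 without fibroblast replicate 2. Elastic fibre and basement membrane genes were called in both directions, 3 of 15 and 4 of 17 higher and 3 and 2 lower. Col4a6, of a specialised basement membrane collagen, read 0.249 and 0.184 against 3.26 and 1.38, a difference of -3.31 ± 0.58 (adjusted p = 0.0197, up to 0.103 omitting either myofibroblast array or fibroblast replicate 1). Laminin gene Lama5 rose by 2.80 ± 0.53 (adjusted p = 0.02501, up to 0.1095 omitting either myofibroblast or either homogenate array). Without either myofibroblast array the elastic fibre list had 0 higher calls, as it did with the 4 sorted arrays, and the basement membrane list had 2 higher and 0 lower. Without fibroblast replicate 2 the basement membrane list had 5 higher and 6 lower, and it had 4 and 6 by the values of the authors' deposited table, where the elastic fibre list had 1 and 5.

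Matrix proteases and their inhibitors were called more often higher than lower. Of 29 matrix proteases and inhibitors, 12 were called higher and 6 lower, with a median of 1.05, or 0.56 after normexp. Serpine2, a protease inhibitor of thrombin and plasminogen activators, read 313 and 306 against 72.5 and 64.7, a rise of 2.18 ± 0.23, and Plaur, the urokinase receptor, rose by 3.44 ± 0.33 (adjusted p = 0.005397 and 0.00395). Both genes were higher on each myofibroblast array than on either fibroblast array, and both were called in every fit. Adam19, a sheddase, rose by 3.07 ± 0.26, and the collagenase gene Mmp13, read only in myofibroblasts at 0.106 and 0.0585, was at least 1.84-fold higher (adjusted p = 0.00317 and 0.00697). Adamts15, which cleaves versican, read 1.35 and 1.73 against 6.28 and 7.24, a difference of -2.14 ± 0.27 (adjusted p = 0.00819), and Reck, a membrane inhibitor of metalloproteases, stood at -2.81 ± 0.41 (adjusted p = 0.0125, up to 0.0706 omitting either myofibroblast array). Higher and lower calls were 7 and 2 without myofibroblast replicate 1, 7 and 3 without replicate 2, and 10 and 4 with the 4 sorted arrays.

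Biosynthetic programmes leaned upward by small amounts, mostly below the threshold. Of 33 genes of ER translocation, folding and export, 29 had a positive difference, 7 were called higher and 0 lower, and the median was 0.70. Hspa5, the ER chaperone BiP, read 98.3 and 87.2 against 42.9 and 58.9 (0.88 ± 0.27, adjusted p = 0.0785), and Hsp90b1 read 143 and 133 against 156 and 115 (0.04 ± 0.27, adjusted p = 0.9202), so the stress chaperones did not pass. Of 29 genes of oxidative phosphorylation, 26 had a positive difference and 7 were called higher, with a median of 0.79. Atp5b, the catalytic subunit of ATP synthase, read 25.9 and 33.7 against 4.21 and 10.1, a rise of 2.18 ± 0.46 (adjusted p = 0.0317, up to 0.145 omitting either myofibroblast or either homogenate array). The single lower member was Ppargc1a, a coactivator of mitochondrial biogenesis, not above background in myofibroblasts and at least 6.095-fold lower (adjusted p = 0.0224, up to 0.0754 without myofibroblast replicate 1, fibroblast replicate 1 or a homogenate array). Ribosome biogenesis genes had 3 of 23 called higher and 0 lower, with a median of 0.69. With the 4 sorted arrays, and without either myofibroblast array, higher calls in these 3 lists numbered 0, and without fibroblast replicate 2 they were 12, 13 and 6, in the order given. In the authors' deposited table they were 4, 3 and 1. After normexp the ER and ribosome medians were 0.45 and 0.40. Genes of N-glycan synthesis, cholesterol synthesis and fatty acid oxidation were seldom called, with 2 of 24, 2 of 31 and 1 of 21 called higher and 1, 1 and 2 called lower.

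Amino acid supply changed in some of its genes. Of 25 genes linked to ATF4, the stress-responsive activator of amino acid synthesis, 8 were called higher and 1 lower, with a median of 0.92. Asns, asparagine synthetase, read 2.27 and 2.19 against 0.214 and 0.154, a rise of 3.62 ± 0.27 (adjusted p = 0.00235), and Slc7a5, the large neutral amino acid transporter, read 3.62 and 3.53 against 0.569 and 0.567, a rise of 2.65 ± 0.24 (adjusted p = 0.00337). For both genes the 2 replicates of each group nearly coincided and the groups were far apart. Chac1, which degrades glutathione, was at least 3.600-fold higher (adjusted p = 0.00178), and Mthfd2, of mitochondrial one-carbon metabolism, rose by 4.11 ± 0.60 (adjusted p = 0.0127, up to 0.0749 omitting either myofibroblast array). Atf4 itself read 119 and 137 against 235 and 136 and did not pass (-0.48 ± 0.34, adjusted p = 0.344). The lower member was Prodh, which breaks down proline, the amino acid collagen is rich in: it was at least 7.49-fold lower (adjusted p = 0.02595, up to 0.122 when any array but fibroblast replicate 2 was left out). Higher calls were 5 with the 4 sorted arrays, 3 or 4 without myofibroblast replicate 1 or 2, and 12 without fibroblast replicate 1.

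Glycolysis and the hypoxia response did not move as 1 block. Enzymes of the glycolytic chain were among the 9 of 31 members called higher, such as Gapdh at 124 and 136 against 23.3 and 35.9, a rise of 2.16 ± 0.30 (adjusted p = 0.0105, up to 0.0648 omitting either myofibroblast array). The hypoxia targets Pfkfb3, Adm and Car9 were the 3 called lower, at -2.62 ± 0.44, -1.84 ± 0.27 and -1.19 ± 0.24 (adjusted p = 0.0183, 0.0128 and 0.0296), while Egln3, an oxygen-sensing prolyl hydroxylase, was at least 8.601-fold higher (adjusted p = 0.00742). The calls of Pfkfb3, Adm and Car9 ended on omitting either myofibroblast or either homogenate array (adjusted p up to 0.0866, 0.07303 and 0.126), another probe of Car9 read -0.05 (adjusted p = 0.924), and only Egln3 was called in every fit. The list counts were 2 and 0 with the 4 sorted arrays, 1 and 0 without either myofibroblast array, 9 and 7 without fibroblast replicate 2, and 4 and 5 in the authors' deposited table.

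Retinoid handling fell in several of its steps. Fibroblasts can store vitamin A as retinyl esters, and a separate set of enzymes oxidises retinol to retinoic acid. Of 21 genes, 7 were called lower and 2 higher, with a median of -0.30. Rbp4, the retinol carrier, read 0.432 and 0.523 against 10.9 and 9.405, a difference of -4.41 ± 0.25 (adjusted p = 0.00132). Dhrs3, a retinal reductase, read 1.35 and 1.62 against 13.3 and 11.6, a difference of -3.07 ± 0.28 (adjusted p = 0.00365), where another probe read -1.72 (adjusted p = 0.0588). Stra6, the receptor that takes retinol up from its carrier, ran the other way: it read 0.342 and 0.367 in myofibroblasts, was not above background in fibroblasts, and was at least 8.27-fold higher (adjusted p = 0.00178). Lower calls were 4 with the 4 sorted arrays and without myofibroblast replicate 1, and higher calls 1 in those fits and without myofibroblast replicate 2, 4 without fibroblast replicate 1 and 3 without fibroblast replicate 2. Lipid storage genes did not move 1 way, with 4 of 28 called higher and 3 lower: Plin4, a lipid droplet coat protein, was at least 8.93-fold lower (adjusted p = 0.00372), while Plin2 read 1.22 and 1.68 against 0.588 and 0.6999 (1.16 ± 0.28, adjusted p = 0.0436, up to 0.182 when any array but fibroblast replicate 2 was left out, and 0.63 (adjusted p = 0.304) at another probe). With the 4 sorted arrays these were 1 and 1, without myofibroblast replicate 1 they were 0 and 1, without replicate 2 they were 1 and 1, and without fibroblast replicate 1 or 2 they were 3 and 5 or 7 and 8.

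Enzymes that detoxify drugs and xenobiotics were called lower far more often than higher. Of 35, 13 were called lower and 1 higher, 30 had a negative difference, and the median was -1.50, with 9 lower calls made in every fit. Gsta3, a glutathione transferase, read 3.91 and 4.397 against 78.7 and 68.2, a difference of -4.14 ± 0.25 (adjusted p = 0.00132). The flavin monooxygenase gene Fmo2 read 10.9 and 7.102 against 102 and 113, a difference of -3.61 ± 0.30, and the aldehyde oxidase gene Aox3 stood at -4.29 ± 0.33 (adjusted p = 0.00299 and 0.00246). Each was several-fold lower on both myofibroblast arrays, and another probe of each read the same way. Gstm3, Fmo5 and the cytochrome gene Cyp2e1 stood at -3.77 ± 0.39, -3.61 ± 0.37 and -3.18 ± 0.28 (adjusted p = 0.00492, 0.004697 and 0.00335), all called in every fit. The exception was Hmox1, the inducible haem oxygenase, which rose from 6.03 and 8.54 to 26.3 and 28.5 by 1.93 ± 0.28 (adjusted p = 0.0117, up to 0.0692 omitting either myofibroblast array). The antioxidant genes Nqo1 and Gclc, targets of NRF2, stood at -0.26 ± 0.33 and 0.01 ± 0.30 and did not pass (adjusted p = 0.605 and 0.991). The single higher call was absent without myofibroblast replicate 1 or 2, and the lower calls numbered 9 without replicate 1.

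Some of these enzymes are also made by airway club cells, whose markers differed between the groups. Of the 10 airway epithelial markers, 3 were called lower in myofibroblasts and 0 higher. Their summed signal was 10.4% and 10.1% of the homogenate in myofibroblasts and 25.4% and 19.1% in fibroblasts, and each sum includes the probe of Trp63, which read 64.2 and 55.8 in myofibroblasts and 63.6 and 67.5 in fibroblasts. The club cell secretoglobin Scgb1a1 read 10.4 and 15.9 in myofibroblasts, 118 and 68.98 in fibroblasts and 614 and 602 in the homogenate (-2.81 ± 0.37, adjusted p = 0.00961, 0.0513 without myofibroblast replicate 1), and the ciliated cell gene Foxj1 was not above background on any sorted array. Set against the homogenate, the fibroblast signal of Scgb1a1 was 19.4% and 11.3%. That of the club cell enzyme genes Cyp2f2 and Cbr2 was lower still, at 5.73% and 2.86% and 4.14% and 2.42%. That of Gsta3, Fmo2, Gstm3 and Cyp2e1 was above the homogenate, at 233% and 202%, 249.5% and 278%, 236% and 253% and 575% and 568%. Another probe of Cbr2 read -0.31 (adjusted p = 0.793). The part of airway RNA in these differences was not tested.

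**Figure D4:**
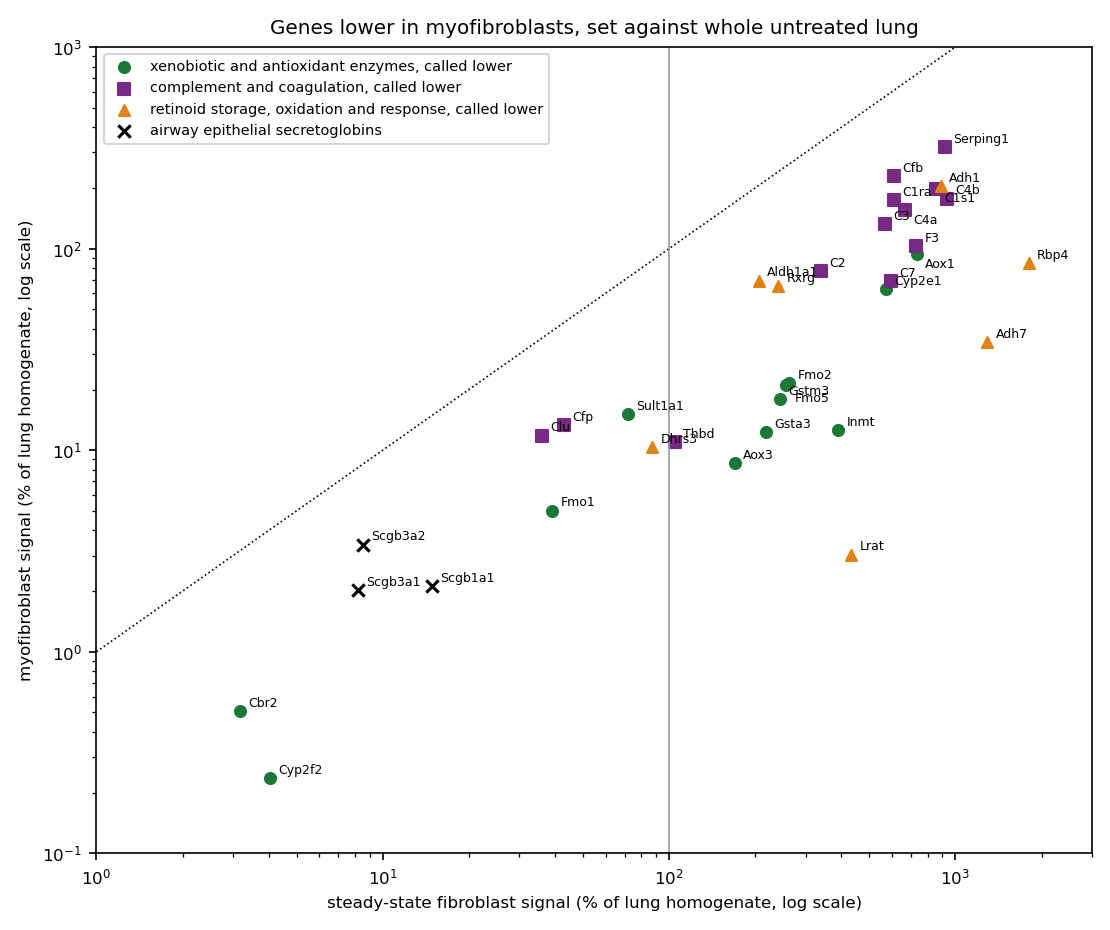
Group mean signal of called lower genes of 3 lists in steady-state fibroblasts (x axis) and myofibroblasts (y axis), each as a percentage of the mean lung homogenate signal, on log axes; crosses are airway secretoglobins, the dotted line marks equal signal in both groups, the grey vertical line the homogenate level, and Sult1e1, not above background in the homogenate, and 1 further gene are left out. Most complement, detoxifying and retinoid genes lie to the right of the grey line, and Cyp2f2, Cbr2 and the secretoglobins to its left.

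Genes that mark the resting fibroblast subsets fell. Of 23 alveolar fibroblast genes, 13 were called lower and 0 higher, with a median of -1.88, and of 25 adventitial genes, 14 were called lower and 2 higher, with a median of -1.76. Fgfr4, a fibroblast growth factor receptor, was at least 27.9-fold lower (adjusted p = 0.0134, up to 0.07004 omitting either myofibroblast array). Gsn, the actin-severing gelsolin, read 47.2 and 73.97 against 479 and 336, a difference of -2.76 ± 0.34, and Ly6c1 read 5.69 and 6.88 against 29.3 and 29.03, a difference of -2.22 ± 0.24 (adjusted p = 0.00742 and 0.00553). Both adventitial genes were lower on each myofibroblast array and were called in every fit, but another probe of Ly6c1 read -0.98 (adjusted p = 0.131). Ly6c1 and other adventitial genes mark Sca-1-positive cells, which the myofibroblast gate left out. Pi16, of adventitial progenitors, read 1.27 and 2.700 against 8.78 and 9.47 (-2.30 ± 0.40, adjusted p = 0.0196, up to 0.0605 without myofibroblast replicate 1, fibroblast replicate 1 or a homogenate array). Lower calls in the 2 lists were 8 and 8 with the 4 sorted arrays, 4 and 6 without either myofibroblast array, and 16 and 16 without fibroblast replicate 1 and fibroblast replicate 2 respectively. The 2 higher adventitial calls were absent with the 4 sorted arrays and without either myofibroblast array, and 3 without fibroblast replicate 2.

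Transcription factors of lung mesenchyme were called lower in 9 of 45 members and higher in 5 (11.1%, near the 9.22% over all genes), with a median of -0.30. Of these calls, 4 lower and 3 higher ones were made in every fit. Runx1, of the Runt family, read 34.3 and 33.3 against 2.19 and 1.56, a rise of 4.19 ± 0.27 (adjusted p = 0.00163), and its 2 other probes also rose. The homeobox gene Meox1 read 13.3 and 12.6 against 0.596 and 0.321, a rise of 4.89 ± 0.37 (adjusted p = 0.00239). Its paralog Meox2 ran the other way, 1.27 and 1.16 against 6.81 and 3.51, a difference of -2.01 ± 0.38 (adjusted p = 0.0236, up to 0.112 omitting either myofibroblast or either homogenate array). Scx, scleraxis of tendon cells, read 15.9 and 16.6 against 0.318 and 0.507, a rise of 5.34 ± 0.69 (adjusted p = 0.00874) that ended on omitting either myofibroblast array (up to 0.0555), although it was called with the 4 sorted arrays (0.008301). Runx2, the osteoblast factor, was at least 17.8-fold higher by its brightest probe (adjusted p = 0.00105), while its other probe read -0.74 (adjusted p = 0.311). Among the genes that fell, the forkhead gene Foxd1 was at least 13.9-fold lower and Twist2 read 0.0925 and 0.172 against 1.67 and 1.27, a difference of -3.53 ± 0.37 (adjusted p = 0.00178 and 0.00507). Prrx1 and Foxf1, general factors of lung mesenchyme, stood at 0.05 ± 0.26 and -1.03 ± 0.53 and did not pass (adjusted p = 0.899 and 0.221). Higher and lower calls were 4 and 5 with the 4 sorted arrays and without myofibroblast replicate 1, 3 and 4 without myofibroblast replicate 2, and 6 and 18 without fibroblast replicate 2.

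Genes that respond to handling or to the time of day gave 5 calls in each list. Of 28 immediate early and heat shock genes, 2 were called higher (7.14%) and 3 lower (10.7%), near the 9.22% and 8.02% over all genes. Egr1, an early gene induced within minutes, read 310.1 and 279 against 565 and 488 (-0.83 ± 0.24, adjusted p = 0.0679). Lower calls reached 12 without fibroblast replicate 2, and higher and lower calls were 4 and 5 without fibroblast replicate 1. Both were 0 without either myofibroblast array, and 1 and 0 with the 4 sorted arrays. Of 18 clock genes, 2 were called higher (11.1%) and 3 lower (16.7%). Bhlhe40, a clock-linked repressor that also answers to hypoxia and growth signals, read 2.67 and 2.49 against 0.519 and 0.696, a rise of 2.10 ± 0.26 (adjusted p = 0.00796). The core oscillator genes Arntl and Per2 stood at 0.16 ± 0.33 and -1.47 ± 0.43 and did not pass (adjusted p = 0.749 and 0.0704). Higher and lower clock calls were 1 and 0 with the 4 sorted arrays, 2 and 0 or 1 and 0 without myofibroblast replicate 1 or 2, and 2 and 6 without fibroblast replicate 2.

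Ion channel and neural adhesion genes were called lower in 12 of 37 members (32.4%) and higher in 4 (10.8%, near the share over all genes), with a median of -0.95, or -0.50 after normexp. Piezo2, a mechanically gated channel of touch neurons, read 24.2 and 15.8 against 0.944 and 0.529, a rise of 4.79 ± 0.39 (adjusted p = 0.00278), and the neural adhesion gene Ncam1 read 7.203 and 7.45 against 0.358 and 0.229, a rise of 4.68 ± 0.30 (adjusted p = 0.00163). Both genes had further probes that were called in the same direction. Kcnmb1, the smooth muscle subunit of the BK potassium channel, was at least 4.38-fold higher (adjusted p = 0.00448). Gabra3, a GABA receptor subunit, read 2.73 and 1.97 against 39.7 and 23.4, a difference of -3.72 ± 0.35, and the adhesion gene Lsamp was at least 16.99-fold lower (adjusted p = 0.00392 and 0.00173). Of the 16 calls, 8 were made in every fit, 3 higher and 5 lower. Lower calls were 8 with the 4 sorted arrays and 7 without myofibroblast replicate 1, and higher calls 6 without fibroblast replicate 2.

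Signalling genes were called in both directions, among ligands, antagonists and co-receptors. Of 27 TGF-beta and activin genes, 7 were called higher and 5 lower. Fst, the activin antagonist follistatin, read 3.88 and 3.51 against 0.0843 and 0.0787, a rise of 5.50 ± 0.30 (adjusted p = 0.00132), in samples in which the activin subunit gene Inhba was also called higher. Tgfb2, a TGF-beta ligand, read 6.32 and 5.57 against 1.19 and 1.27, a rise of 2.27 ± 0.24 (adjusted p = 0.00519). The signalling receptor genes Tgfbr1 and Tgfbr2 stood at -0.29 ± 0.36 and -0.23 ± 0.39 and did not pass (adjusted p = 0.5898 and 0.697), whereas Tgfbr3, the co-receptor betaglycan, read 3.82 and 3.55 against 33.99 and 21.4, a difference of -2.87 ± 0.31 (adjusted p = 0.00535). The activin receptor gene Acvr2b stood at -2.33 ± 0.41 (adjusted p = 0.0199, up to 0.0892 omitting either myofibroblast or either homogenate array). Smad3, the transducer of both ligands, read 3.25 and 2.51 against 12.8 and 5.100 (-1.50 ± 0.47, adjusted p = 0.0822). Lower calls in this list were 1 with the 4 sorted arrays and without either myofibroblast array, and 9 without fibroblast replicate 2, and higher calls 4 without myofibroblast replicate 2.

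In the BMP pathway, whose ligands oppose TGF-beta in many mesenchymal cells, 5 of 27 genes were called higher and 7 lower. Gdf10, a BMP-like ligand, read 3.198 and 4.01 against 43.6 and 27.2, a difference of -3.27 ± 0.32 (adjusted p = 0.00443), and Bmp4 read 3.82 and 6.21 against 18.7 and 16.9, a difference of -1.87 ± 0.32 (adjusted p = 0.0191, up to 0.07196 without myofibroblast replicate 1, fibroblast replicate 1 or a homogenate array). The antagonist genes Chrdl1 and Sostdc1 fell with them, Chrdl1 to 0.626 and 0.463 from 6.24 and 3.405, a difference of -3.10 ± 0.37, and Sostdc1 at least 3.102-fold (adjusted p = 0.00706 and 0.00371). Grem1, another antagonist, was called higher, so the antagonists did not move 1 way. Higher and lower calls were 2 and 5 with the 4 sorted arrays and without myofibroblast replicate 1, and 1 and 4 without myofibroblast replicate 2. In the Wnt pathway 7 of 43 genes were called higher and 7 lower. Wnt10a, a ligand, was at least 15.2-fold higher, and the receptor gene Fzd6 read 1.86 and 1.31 against 0.139 and 0.149, a rise of 3.44 ± 0.28 (adjusted p = 0.00554 and 0.00299). Rspo1, an R-spondin that amplifies Wnt signals, read 0.115 and 0.0639 against 2.22 and 1.05, a difference of -4.15 ± 0.47 (adjusted p = 0.006096). Rspo1 also marks mesothelium: its summed markers (8 genes) were 27.0% and 17.7% of the homogenate in myofibroblasts and 119% and 49.0% in fibroblasts, and Upk3b and Lrrn4 were not above background on any sorted array. Most of that sum was Upk1b, at 2.45 and 1.66 in myofibroblasts and 10.17 and 4.08 in fibroblasts, and Rspo1 itself is part of it. The Wnt counts were 3 and 2 with the 4 sorted arrays, 3 and 1 or 3 and 2 without myofibroblast replicate 1 or 2, and 9 and 11 without fibroblast replicate 2.

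Hedgehog genes were called lower or not at all. Of 14, 4 were called lower and 0 higher, with a median of -0.62. Gas1, a co-receptor, read 0.484 and 0.803 against 3.804 and 3.09, a difference of -2.46 ± 0.33 (adjusted p = 0.0101), and the pathway's transcription factor gene Gli1 read 0.677 and 0.6204 against 5.300 and 2.32, a difference of -2.44 ± 0.45 (adjusted p = 0.0223, up to 0.108 omitting either myofibroblast or either homogenate array). Gas1 was lower on both myofibroblast arrays and called in every fit. Lower calls were 2 with the 4 sorted arrays and 1 without either myofibroblast array. In the Notch pathway 1 of 14 was called higher, the Notch glycosyltransferase gene Lfng, which was at least 6.93-fold higher and not above background in fibroblasts (adjusted p = 0.00494).

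Growth factor genes moved in both directions, 9 of 40 higher and 9 lower. Hbegf, a ligand of the EGF receptor family, read 21.2 and 21.2 against 0.778 and 0.341, a rise of 5.36 ± 0.42 (adjusted p = 0.00261), and Nrg1, neuregulin of the same family, read 1.45 and 1.31 against 0.112 and 0.0666, a rise of 3.99 ± 0.39 (adjusted p = 0.00422). The PDGF ligand genes Pdgfc and Pdgfa rose as well, Pdgfc from 0.262 and 0.212 to 5.15 and 4.54, by 4.36 ± 0.25, and Pdgfa by 2.50 ± 0.27 (adjusted p = 0.00132 and 0.005397). All 4 ligands were higher on each myofibroblast array and called in every fit, as was the IGF-binding protein gene Igfbp2 (3.35 ± 0.28, adjusted p = 0.00301). Factors that act on endothelium and epithelium were called in both directions. Vegfc, a growth factor of lymphatic endothelium, rose by 1.90 ± 0.35 (adjusted p = 0.0226, up to 0.0996 omitting either myofibroblast or either homogenate array). Angpt1, a ligand for endothelial Tie2, read 3.94 and 3.96 against 27.00 and 18.97, a difference of -2.52 ± 0.27 (adjusted p = 0.00548). The epithelial growth factor genes Fgf10 and Fgf7 stood at -1.58 ± 0.38 and -1.74 ± 0.38 (adjusted p = 0.0461 and 0.0343). Fgf10 lost its call on omitting any of the 6 arrays (adjusted p up to 0.1900) and Fgf7 when any but fibroblast replicate 2 was (up to 0.135). Higher and lower calls were 6 and 3 with the 4 sorted arrays, 5 and 3 without myofibroblast replicate 1, 7 and 2 without replicate 2, and 11 and 6 without fibroblast replicate 1. The plot of differences by pathway shows several ligands and antagonists at the ends of each list, and Tgfbr1, Tgfbr2 and Smad7 near 0.

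**Figure D5:**
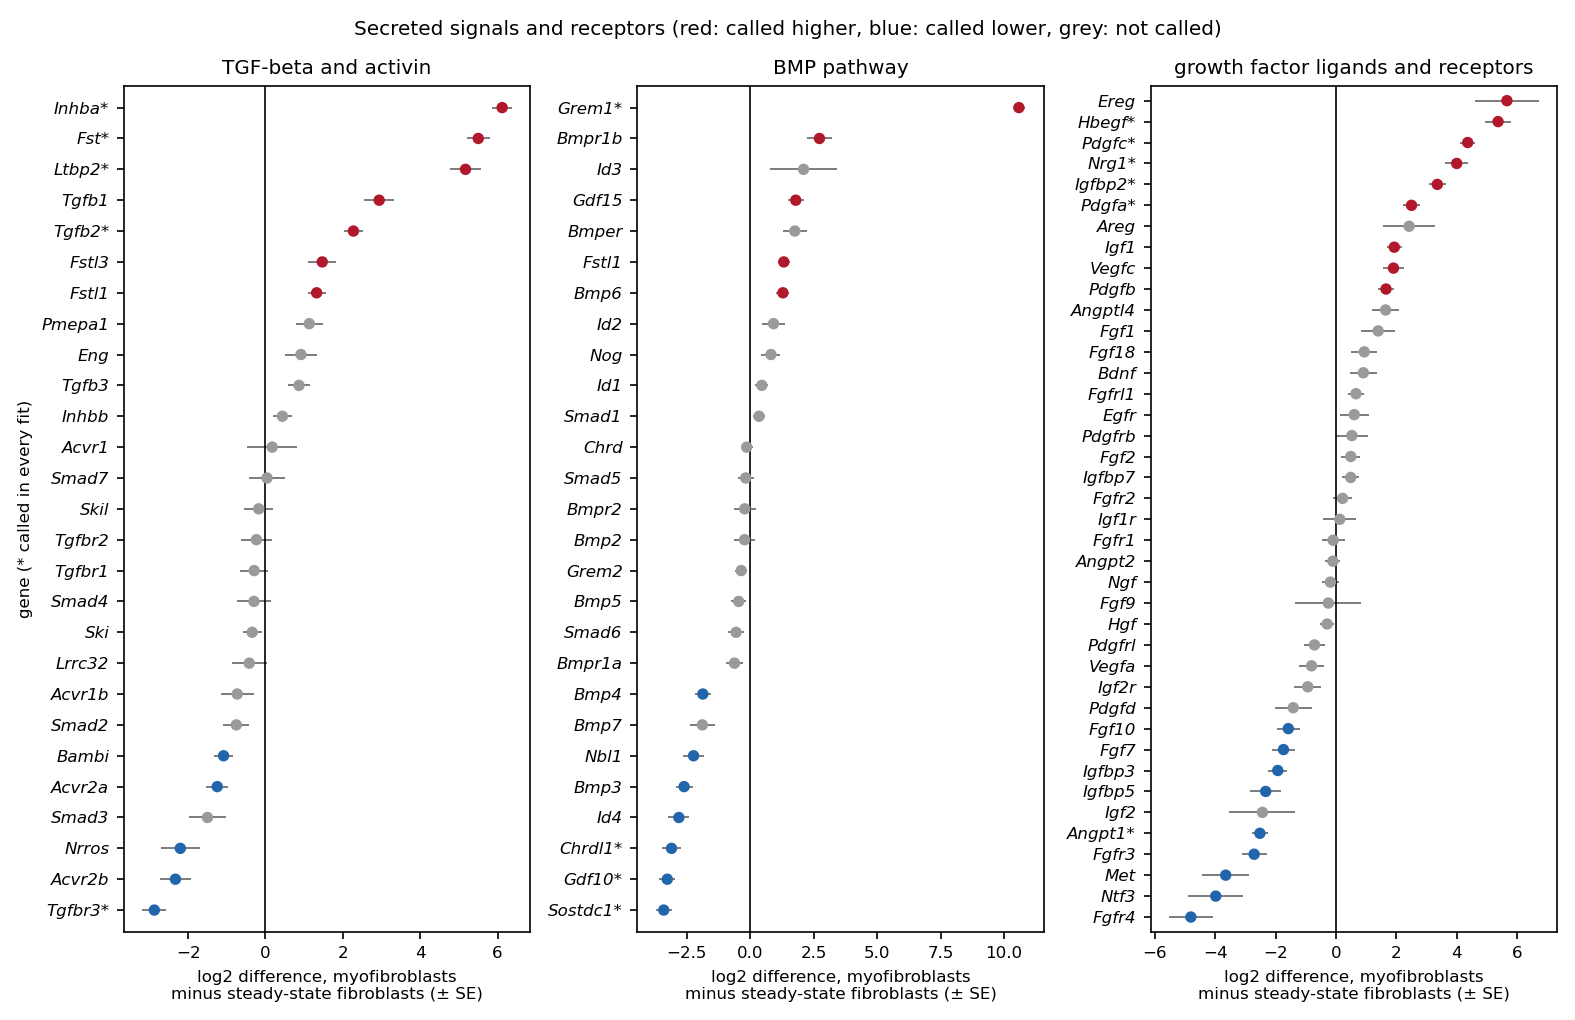
Log2 difference, myofibroblasts minus steady-state fibroblasts, ± SE for each tested member of the TGF-beta and activin, BMP and growth factor lists (red, called higher; blue, called lower; grey, not called; an asterisk marks genes called in every fit). Fst, Inhba, Grem1, Hbegf and Pdgfc lie at the upper end, Tgfbr3, Sostdc1 and Fgfr4 at the lower end, and Tgfbr1, Tgfbr2 and Smad7 near 0; for genes dim in 1 group the plotted value is the fitted one, not a bound.

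Vasoactive and guidance lists held a few large changes. Of 33 genes of relaxation and vascular tone, 3 were called higher (9.09%) and 4 lower (12.1%), against 9.22% and 8.02% over all genes. Edn1, the constrictor endothelin-1, was at least 11.3-fold higher, and Npr3, the natriuretic peptide clearance receptor, read 7.37 and 6.66 against 0.957 and 0.895, a rise of 2.92 ± 0.25 (adjusted p = 0.00566 and 0.00319). Of the receptors for constrictors, Ednra read 1.41 and 1.34 against 11.4 and 3.85, a difference of -2.27 ± 0.52 (adjusted p = 0.0402, up to 0.158 omitting either myofibroblast or either homogenate array). The fits without an array gave 2 and 1 or 3 and 1 for myofibroblast replicate 1 or 2, and 4 and 9 for fibroblast replicate 2, with 2 and 2 for the 4 sorted arrays. Of 35 axon guidance genes, 2 were called higher (5.71%, below the share over all genes) and 6 lower (17.1%). Sema7a, a membrane-anchored semaphorin, read 0.418 and 0.477 in myofibroblasts only and was at least 10.4-fold higher, and the netrin receptor gene Unc5b read 4.93 and 5.501 against 0.247 and 0.294, a rise of 4.27 ± 0.28 (adjusted p = 0.000958 and 0.00173). Epha4, an ephrin receptor, stood at -2.66 ± 0.27 (adjusted p = 0.00457). Lower guidance calls were 2 with the 4 sorted arrays, 1 or 3 without myofibroblast replicate 1 or 2, and 3 or 14 without fibroblast replicate 1 or 2, and higher ones 4 and 3 in the last pair.

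Chemokine and cytokine genes rose more often than they fell, and complement genes fell. Of 41 chemokines, cytokines and their receptors, 15 were called higher and 4 lower, with a median of 0.84. Tnfrsf11b, osteoprotegerin, the soluble decoy for RANKL, read 1.61 and 2.23 in myofibroblasts and 0.00993 and 0.01295, not above background, in fibroblasts, at least 44.2-fold higher (adjusted p = 0.000935). Tnfsf11, RANKL itself, was at least 6.33-fold higher and the T cell chemokine gene Cxcl9 at least 11.7-fold (adjusted p = 0.00128 and 0.002303). All 3 were read on both myofibroblast arrays and on neither fibroblast array. Il6 read 5.77 and 4.71 against 30.1 and 11.9 and did not pass by its brightest probe (-1.86 ± 0.47, adjusted p = 0.0506). Another probe of Il6 was called lower (-1.57, adjusted p = 0.0211). Higher calls were 7 with the 4 sorted arrays and 8 or 5 without myofibroblast replicate 1 or 2, and lower calls 2 with the 4 sorted arrays and 1 without myofibroblast replicate 1.

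Of 23 complement and coagulation genes, 14 were called lower and 0 higher, with a median of -1.69. C7, of the terminal pore, read 1.15 and 1.103 against 6.86 and 13.7, a difference of -3.10 ± 0.38 (adjusted p = 0.00751). The central component gene C3 read 51.8 and 52.6 against 276 and 182, a difference of -2.10 ± 0.30 (adjusted p = 0.0113, up to 0.0646 omitting either myofibroblast array), and Thbd, the anticoagulant thrombomodulin, stood at -3.26 ± 0.35 (adjusted p = 0.00547). The fibroblast signal of C7 was 421% and 840.5% of the homogenate, and that of C3 was 700.1% and 460.5%. Lower calls were 9 with the 4 sorted arrays and 4 or 6 without myofibroblast replicate 1 or 2, and 4 were made in every fit.

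Antigen presentation genes were called higher in 4 of 18 members and lower in 0, and these calls lay beside a low macrophage signal. Ctss, a lysosomal protease, read 0.688 and 1.63 against 0.0891 and 0.0474 and 113 and 116 in the homogenate, at least 16.3-fold higher in myofibroblasts (adjusted p = 0.00845), and the class II gene H2-Aa was at least 1.67-fold higher (adjusted p = 0.00993). Of 14 macrophage and monocyte markers, 2 were called higher and 0 lower. The alveolar macrophage gene Chil3 read 0.333 and 1.04 against 0.02603 and 0.0154 and 194 and 195 in the homogenate, at least 13.7-fold higher (adjusted p = 0.00719), and Marco read 0.458 and 1.84 against 0.111 and 0.107 and 67.9 and 71.4 (3.07 ± 0.64, adjusted p = 0.0315, up to 0.0883 omitting either fibroblast or either homogenate array). The summed markers were 6.47% and 6.87% of the homogenate in myofibroblasts and 5.96% and 7.49% in fibroblasts, most of it from the Csf1r probe, which read alike on all arrays (20.1 and 19.5, 18.6 and 24.4 and 20.9 and 21.9). Adgre1, Mrc1, Fcgr1, C1qa, Ear2 and Itgax were not above background on either myofibroblast array. Cd68, Cd14 and C1qb were above it on all 4 sorted arrays and were not called. Lyz2 was above background on both myofibroblast arrays and on neither fibroblast array (0.0674 and 0.153 against 0.0354 and 0.0408). It did not pass (1.42, adjusted p = 0.0745). The leukocyte gene Ptprc was above background on myofibroblast replicate 2 only among the sorted arrays. The part of macrophage RNA in the Ctss and H2-Aa calls was not tested. The antigen presentation count was 2 with the 4 sorted arrays and without myofibroblast replicate 1, and 7 without fibroblast replicate 2. Interferon-stimulated genes were called higher in 4 and lower in 5 of 28 members, and 0 and 0 without either myofibroblast array, 1 and 0 with the 4 sorted arrays, and 6 and 6 without fibroblast replicate 2.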

How the data were processed

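The 6 samples of 3 groups were each hybridised to 1 array of a single slide, the sorted samples in one slide row and the homogenates in the other, so that row and group cannot be told apart for the homogenates. The deposited intensities come from Agilent Feature Extraction 12.0.3.1, per the submitters' processing notes, with background subtraction and detrending per the file headers; the 0 or 1 spot flags (well above background, outlier) come from the same files. The authors' deposited table holds the same processed intensity times 1 constant per array for 99.6% of probes, with the choice of constant not given in the sources used here.

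Here, control and outlier spots were left out, spots of a probe averaged, and log2 processed signal set relative to the array's 75th percentile. Of 56605 probes, 32994 carried the name of 1 of 22911 genes and 23611 had no name used here. The probe with the highest mean signal over all 6 arrays, called the brightest, stood for a gene. limma 3.58.1 (R 4.3.3) was fitted to all 6 arrays over 17401 genes, with 3 residual degrees of freedom (5.57 with the prior). The 16006 genes that were well above background on both arrays in 1 or both sorted groups were tested, and the Benjamini-Hochberg adjustment ran over them. A lower-bound fold compares the bright group's mean with the mean of, per dim array, the higher of its lowest signal well above background and the probe's own. The number of arrays limits the precision. Steps were tested on simulated data.

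Members and lists were chosen with earlier results of these data known. Named genes were, per list, up to 4 called higher and 4 called lower by size, those called in every fit first, plus anchor genes; further named genes, such as Kif11, Myl6 and Cdkn2a, were chosen after their values were seen. Tables were drawn with Python 3.11.15, and promoters are RefSeq windows of GRCm38.p6. Alternatives covered scaling, background correction, probe filter and choice, arrays in the fit, spread model, threshold, floor, replicate block and each array left out. A few genes that the naming rule would take are not reported here by name, though the list counts include them.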

Additional observations from a re-analysis of the deposited data

How the results depend on the processing

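The count of 2758 called genes was 1061 with the 4 sorted arrays, 1142 with a spread estimated per group, 1821 when all 4 sorted arrays had to be above background (fewer genes tested) and 710 at an adjusted p under 0.01. Leaving out 1 array gave 884 to 5605, the lowest without myofibroblast replicate 2 (1008 without replicate 1) and the highest without fibroblast replicate 2, where the remaining group of 1 is assumed to vary like the others. The other settings gave 2015 to 3885 calls. Quantile normalization, median scaling, normexp and the authors' deposited table called 2564, 2698, 3398 and 3885 genes, of which 51.6%, 64.6%, 51.1% and 25.4% were higher. The numbers 1 and 2 do not pair the samples: deviations of same-numbered samples correlated at 0.06 between the sorted groups. With the replicate number as a block 2229 genes were called, 2096 of them among the 2758. Of 362 genes open to naming, none that was called changed sign under the settings run. The brightest probes of Tpm1 and Cdc45 were not called (-0.14 and -0.26), while the mean over all their probes was called at 1.84 and 1.52. List medians that changed sign under a scaling were N-glycan synthesis (0.39, -0.02 in the authors' table), SRF, YAP and TEAD (0.37, -0.04), antigen presentation (0.30, -0.11), growth factors (0.17, -0.24), Notch (0.03, -0.38), Wnt (-0.06, 0.08 with median scaling), cholesterol synthesis (-0.09, 0.05), fatty acid oxidation (-0.07, 0.07) and lipid storage (-0.18, 0.04 with normexp). The cause of these differences was not tested. Of 467 list members with another tested probe, 70 were called by that probe only and 58 by the brightest only, and in 0 were both called in opposite directions. Each group has 2 samples, and fold changes of dim genes are limited by background.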
